A study of Homo sapiens with 30 samples.

Results

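The B-cell receptor kinases and adaptors described here are 10 genes, taken by exact gene symbol from the 21112 genes of each RNA-sequencing library. They are the tyrosine kinases SYK, LYN, BTK, BLK and FYN, the adaptors BLNK, DAPP1 and GRB2, the phospholipase PLCG2 and the guanine nucleotide exchange factor VAV1. All 10 were measured in every library and passed the filter on low counts in every test. The libraries come from 4 diffuse large B-cell lymphoma (DLBCL) cell lines, with OCI-Ly10 and TMD8 as the activated B-cell-like (ABC) and HT and K422 as the germinal center B-cell-like (GCB) subtype. Cells received 0.5 µM AZD8186, an inhibitor of the PI3Kβ and PI3Kδ isoforms, or the solvent DMSO, and RNA was taken at 6, 12, 18 and 24 h (6, 18 and 24 h in TMD8). Every AZD8186 library is matched by a DMSO library, which gives 15 pairs, 7 in the ABC and 8 in the GCB lines. The study picked lines that it describes as sensitive to AZD8186, so the groups hold no resistant line. Each line, treatment and time has 1 library, and no source used here states that libraries came from separate cultures. The p-values therefore measure the spread between libraries that remains after each fit's terms for line, time or pair. Only changes over time that those terms do not describe are part of that spread, which may be technical. RNA of a culture does not tell fewer cells of a type from less RNA per cell.

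Binding of antigen to the B-cell receptor starts a relay of kinases. LYN, and beside it BLK and FYN, are SRC-family kinases that phosphorylate the CD79A and CD79B chains, to which SYK then binds. SYK phosphorylates BLNK, a scaffold on which BTK, PLCG2, VAV1 and GRB2 assemble, and PLCG2 then cleaves a membrane lipid to release calcium and activate protein kinase C. PI3K makes the lipid that holds BTK and DAPP1 at the membrane, so that these proteins are linked to the target of AZD8186. Chronic signaling through the receptor is a known feature of ABC DLBCL. The data address how much mRNA of each gene the lines carry and whether AZD8186 changes it.

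Expected counts summed to 15820230 to 23579029 per library (median 18591638.5, n = 30), and the 10 genes together took 0.159% to 0.232% of them. Their lowest single value was 12 counts, for FYN in OCI-Ly10. Ribosomal protein genes took 21.4% to 25.8% of the counts in the ABC lines under AZD8186 and 17.5% to 23.2% under DMSO, and 13.6% to 18.3% in the GCB lines under AZD8186 and 11.3% to 17.1% under DMSO. B-cell markers were present in every line. IRF4, an ABC marker, had 78.0 to 206 TPM (a level corrected for transcript length and scaled to the library) in the ABC lines and at most 0.0400 TPM in the GCB lines. FOXP1, the other ABC marker examined, did not separate the subtypes. It had 27.1 to 35.8 TPM in OCI-Ly10 and 15.3 to 20.4 TPM in TMD8, against 10.7 to 14.7 TPM in HT and 17.8 to 33.1 TPM in K422. MME, a GCB marker, had at most 0.570 TPM in the ABC lines and 22.4 to 51.9 TPM in the GCB lines. K422 stood apart by the T-cell genes CD3D (61.6 to 87.3 TPM) and CD3G (82.1 to 116 TPM), while CD3E reached at most 1.65 TPM and CD2 was at 0 in its libraries. The summed T-cell markers of K422 were 167 to 182 TPM under AZD8186 and 162 to 184 TPM under DMSO.

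Promoters are shown for BLNK and DAPP1, which both rose in the ABC and in the GCB lines. VAV1 and PLCG2, whose ratios were the most alike of the 10 genes, are shown as well. RefSeq's promoter table (GRCh38.p14) matched 8 of the 10 genes, at 14 annotated starts, and holds 1 start for each of the 4. It had no entry for LYN and BLK, so BLK, which also rose in both subtypes, could not be shown. Shown are the 250 bases before the start on the gene's own strand, with capitals for the letters AGGAAGT or their reverse complement, and for the longer GAGGAAGT that overlaps them.
BLNK, chr10:96271570-96271819, minus strand: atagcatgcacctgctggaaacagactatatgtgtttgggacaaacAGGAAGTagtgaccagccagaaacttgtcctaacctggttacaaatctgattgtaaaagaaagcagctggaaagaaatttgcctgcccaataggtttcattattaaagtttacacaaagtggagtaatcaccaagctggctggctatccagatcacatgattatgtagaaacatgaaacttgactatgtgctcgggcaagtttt
DAPP1, chr4:99816577-99816826, plus strand: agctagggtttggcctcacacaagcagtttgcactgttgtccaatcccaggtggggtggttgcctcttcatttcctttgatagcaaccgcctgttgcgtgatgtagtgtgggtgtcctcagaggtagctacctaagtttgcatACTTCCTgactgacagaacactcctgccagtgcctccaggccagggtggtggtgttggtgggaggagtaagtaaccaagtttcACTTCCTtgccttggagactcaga
VAV1, chr19:6772458-6772707, plus strand: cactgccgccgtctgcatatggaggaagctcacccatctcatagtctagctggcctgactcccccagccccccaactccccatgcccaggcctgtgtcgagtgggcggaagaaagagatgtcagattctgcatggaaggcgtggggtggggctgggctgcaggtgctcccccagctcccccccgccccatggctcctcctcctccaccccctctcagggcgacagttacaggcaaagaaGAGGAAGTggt
PLCG2, chr16:81738791-81739040, plus strand: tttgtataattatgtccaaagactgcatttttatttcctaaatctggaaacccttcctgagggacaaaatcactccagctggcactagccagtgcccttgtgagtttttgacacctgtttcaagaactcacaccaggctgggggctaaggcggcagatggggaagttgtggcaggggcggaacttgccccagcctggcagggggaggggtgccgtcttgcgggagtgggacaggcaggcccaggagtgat

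AGGAAGT, the core of many ETS-family sites, was found on either strand in 7.01% of 35116 promoters of the same length and at 5 of the 14 starts of the genes described here. It lies 204 to 198 bases before the start of BLNK, 107 to 101 and 24 to 18 bases before that of DAPP1 and 10 to 4 bases before that of VAV1, and it is not in the PLCG2 window. GAGGAAGT, the form that PU.1 binds, was in 2.17% of all promoters and at 3 of the 14 starts, those of SYK, BTK and VAV1. TGTTTAC, the FOXO motif, was in 2.98% of all promoters and at 0 of the 14 starts. The E-box CACGTG (6.34% of all promoters) and the octamer ATGCAAAT (1.63%) were also at 0 of the 14 starts, and the EGR motif GCGTGGGCG (0.720%) was at 1, in FYN. AGGAAGT was added after the windows had been read. These matches describe letters in a window and were not tested against the expression values.

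Under DMSO the lines carried the 10 genes in very different proportions. Levels are given in TPM, which allows genes to be compared with each other, as the mean over the 4 time points (3 in TMD8). In OCI-Ly10 the order of the means was BLNK 223, SYK 145, GRB2 98.7, BTK 62.0, LYN 56.0, PLCG2 43.2, BLK 32.4, VAV1 31.6, DAPP1 13.9 and FYN 0.288 TPM. In TMD8 it was LYN 204, GRB2 157, SYK 94.5, BLNK 80.3, BTK 59.7, VAV1 43.7, PLCG2 32.3, DAPP1 10.4, BLK 9.42 and FYN 1.57 TPM. The scaffold BLNK thus led in one ABC line and the kinase LYN in the other, while FYN was last in both. In HT the order was GRB2 126, BLK 115, BLNK 88.2, PLCG2 78.5, FYN 59.2, VAV1 51.9, BTK 46.5, DAPP1 8.63, SYK 8.12 and LYN 6.39 TPM. In K422 it was PLCG2 133, SYK 95.6, GRB2 94.0, BLK 85.7, BTK 65.9, VAV1 59.1, FYN 42.8, LYN 34.4, DAPP1 13.6 and BLNK 7.58 TPM. HT was low in SYK and LYN and K422 was low in BLNK, whereas GRB2 was among the upper 3 genes in all 4 lines.

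**Figure D1:**
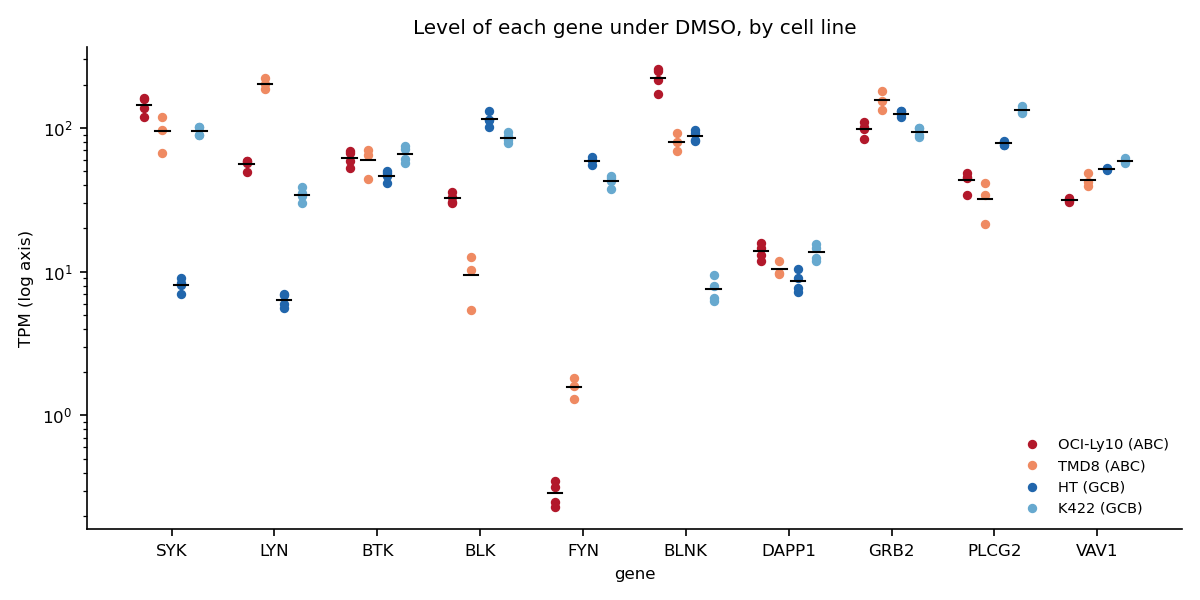
Level of the 10 genes under DMSO in TPM (log axis), with 1 point per library and a bar at the mean of each line (4 libraries, 3 in TMD8). FYN lies at 0.230 to 1.81 TPM in the ABC lines and 37.5 to 62.4 TPM in the GCB lines, while GRB2, BTK, VAV1 and DAPP1 stay within a narrow range.

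Differences between lines were tested on counts with edgeR's quasi-likelihood F test, with the time point as a term and p-values adjusted over all genes by Benjamini and Hochberg's method. At an adjusted p under 0.05, 6 of the 10 genes were higher and 4 were lower in the ABC than in the GCB lines. This says little about these genes as a group, since 81.1% of all genes tested differed. With 2 lines per subtype, a difference between subtypes cannot be told apart from one between these lines.

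The SRC-family kinases split between the subtypes. LYN (chr8:55879813-56014168, plus strand, in GENCODE 29 on GRCh38) was higher in the ABC lines by 3.19 on the log2 scale (SE 0.06, adjusted p = 1.68e-18, edgeR), and BLK (chr8:11486894-11564604, plus strand) was lower by a log2 difference of -2.15 (SE 0.10, adjusted p = 3.19e-13). LYN under DMSO had 202, 185 and 224 TPM in TMD8 at 6, 18 and 24 h, and 49.3, 58.6, 58.8 and 57.3 TPM in OCI-Ly10 at 6, 12, 18 and 24 h. It had 6.00, 5.63, 6.93 and 7.01 TPM in HT and 33.8, 29.9, 38.8 and 35.1 TPM in K422 at the same 4 times. All 4 lines were thus apart for LYN, in the order TMD8, OCI-Ly10, K422 and HT. FYN (chr6:111660332-111873452, minus strand), which is the SRC-family kinase shared with T cells, showed the widest gap, with a log2 difference of -5.92 (SE 0.08, adjusted p = 2.7e-20). FYN had 0.230 to 0.350 TPM in OCI-Ly10 and 1.30 to 1.81 TPM in TMD8, against 55.0 to 62.4 TPM in HT and 37.5 to 46.1 TPM in K422. HT, with the higher FYN level, had at most 5.20 TPM of summed T-cell markers, and K422 had at least 162 TPM; the part of T-cell genes in the FYN level of K422 was not tested. The mean transcript length of FYN, an RSEM estimate that moves with the mix of its transcripts, was 3477 to 3545 bases in HT and 3325 to 3402 bases in K422, without overlap between the lines.

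SYK and BLNK, the kinase and its scaffold, each had 1 GCB line in which they were scarce. SYK (chr9:90801787-90898549, plus strand) was higher in the ABC lines by 2.41 on the log2 scale (SE 0.05, adjusted p = 7.16e-18), with HT far below the other lines at 7.02 to 9.05 TPM, where K422 had 89.3 to 102 TPM. Between TMD8 and K422 the SYK difference was 0.38 (SE 0.07, adjusted p = 0.000131) on counts and changed sign on log2(TPM + 1), with -0.0660. BLNK (chr10:96191702-96271587, minus strand) was higher in the ABC lines by 2.70 (SE 0.05, adjusted p = 2.94e-18), with 172, 216, 248 and 258 TPM in OCI-Ly10 and 69.0, 79.3 and 92.7 TPM in TMD8. In the GCB lines BLNK had 82.8, 81.3, 91.7 and 97.1 TPM in HT and 6.59, 6.26, 9.49 and 7.96 TPM in K422. HT overlapped TMD8 for BLNK (log2 difference of TMD8 against HT 0.11, SE 0.07, adjusted p = 0.174), so that the subtype difference came from OCI-Ly10 at the top and K422 at the bottom.

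PLCG2 (chr16:81739097-81962693, plus strand) was lower in the ABC lines by a log2 difference of -1.11 (SE 0.06, adjusted p = 9.02e-12), and every pair of lines differed. Its order was K422 with 127 to 142 TPM, HT with 75.9 to 81.8 TPM, then OCI-Ly10 with 34.1 to 49.0 TPM and TMD8 with 21.4 to 41.3 TPM, the last 2 overlapping in range. VAV1 (chr19:6772714-6857366, plus strand) varied little, with -0.22 between ABC and GCB lines (SE 0.04, adjusted p = 0.000146). OCI-Ly10 was the one line with less VAV1, and TMD8, HT and K422 did not pass the test on counts against each other (adjusted p = 0.401 to 0.896). On log2(TPM + 1) the 3 lines did separate, TMD8 lying below HT (-0.25, adjusted p = 0.00399) and K422 (-0.44, adjusted p = 5.06e-05) and HT below K422 (-0.18, adjusted p = 0.0181). BTK (chrX:101349447-101390796, minus strand) was higher in the ABC lines by 0.46 (SE 0.05, adjusted p = 8.51e-08), DAPP1 (chr4:99816833-99870154, plus strand) by 0.49 (SE 0.08, adjusted p = 1.27e-05) and GRB2 (chr17:75318076-75405709, minus strand) by 0.54 (SE 0.04, adjusted p = 2.36e-10). These 3 differences are small and partly a matter of scale: on log2(TPM + 1), BTK (0.10, adjusted p = 0.124) and DAPP1 (0.12, adjusted p = 0.0948) did not pass. Neighbours in the order of a gene that did not pass the test on counts were OCI-Ly10 and TMD8 for BTK, OCI-Ly10 and HT for GRB2, and TMD8 and K422 for DAPP1.

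Across the 6 pairs of lines, between 8 and 10 of the 10 genes passed the test, beside 69.3% of all genes for OCI-Ly10 against TMD8, 80.6% for OCI-Ly10 against HT, 80.9% for OCI-Ly10 against K422, 76.4% for TMD8 against HT, 77.1% for TMD8 against K422 and 68.0% for HT against K422. The median absolute log2 difference between ABC and GCB lines was 1.63 over the 10 genes and 0.71 over all genes tested. Over the 50 genes tested from a list of other B-cell receptor signaling genes, described below, it was 1.42, so the wide gap is not particular to the 10 genes.

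Under AZD8186, 5 of the 10 genes rose in the ABC lines, BLK, PLCG2, DAPP1, BLNK and BTK, and 0 fell. In the GCB lines 3 rose, BLK, BLNK and DAPP1, and VAV1 fell. BLK had the largest fitted rise of the 10 genes in the ABC lines, 1.41-fold, and rose 1.46-fold in the GCB lines, where BLNK rose 1.44-fold, within the SE of both. VAV1 in the GCB lines fell to 0.694 of its DMSO level. Over all genes, 15.3% were higher and 13.8% lower in the ABC lines, and 25.9% were higher and 23.5% lower in the GCB lines, so that 4 called genes of 10 in the GCB lines is near the background. The median log2 fold change of the 10 genes was 0.13 in the ABC and 0.02 in the GCB lines, beside 0.01 and 0.02 over all genes tested. On log2(TPM + 1) the median of all genes in the ABC lines moved to -0.15, and lower genes made up 88.0% of its calls, beside 47.4% on counts (59.5% beside 47.6% in the GCB lines). Of the 5 ABC rises 0 passed on that scale, although each gene stayed above that median (BLK 0.30, PLCG2 0.10, DAPP1 0.08, BLNK 0.07 and BTK -0.05), and LYN (-0.44), SYK (-0.34) and VAV1 (-0.24) were lower. In the GCB lines VAV1 (-0.57), LYN (-0.29) and PLCG2 (-0.22) were lower and BLK (0.48) and BLNK (0.47) higher on that scale.

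**Figure D2:**
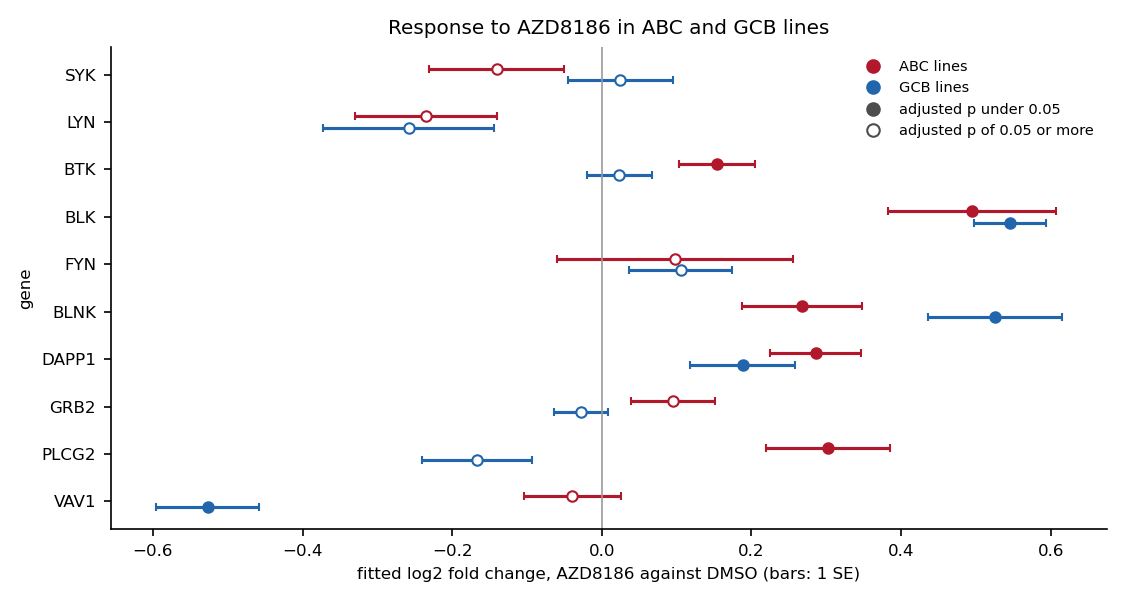
Fitted log2 fold change of AZD8186 against DMSO for the 10 genes in the ABC lines (7 pairs) and the GCB lines (8 pairs), with bars of 1 SE and filled points for an adjusted p under 0.05. BLK is at 0.49 and 0.55, VAV1 at -0.04 and -0.53 and PLCG2 at 0.30 and -0.17 in the ABC and GCB lines.

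BLK rose in all 4 lines. Levels in single libraries are given in CPM, counts scaled to the library total after TMM normalization, which compare libraries and not genes. In HT, BLK had 262, 317, 354 and 309.9 CPM under AZD8186 at 6, 12, 18 and 24 h, against 188, 207, 241 and 197 CPM under DMSO. In K422 it had 156, 225, 232 and 214 CPM under AZD8186, against 134, 144, 149 and 138 CPM under DMSO. The treated and solvent libraries did not overlap in either line, and the K422 pair at 6 h had the smallest gap. How many of all genes separate in this way within a single line was not counted. In OCI-Ly10 BLK had 94.1, 103, 107 and 98.9 CPM under AZD8186, against 81.4, 78.9, 65.3 and 60.4 CPM under DMSO. TMD8, in which BLK is scarce, had 26.8, 36.0 and 24.0 CPM under AZD8186 at 6, 18 and 24 h, against 13.7, 23.2 and 23.9 CPM under DMSO. In CPM the rise was thus present in 15 of 15 pairs, although the TMD8 values at 24 h were nearly equal. In TPM that TMD8 pair went the other way, with 10.2 TPM under AZD8186 against 12.6 TPM under DMSO. The log2 fold change was 0.49 (SE 0.11, adjusted p = 0.00542, edgeR) in the ABC and 0.55 (SE 0.05, adjusted p = 1.12e-06) in the GCB lines, and by line it was 0.51 in OCI-Ly10, 0.51 in TMD8, 0.57 in HT and 0.53 in K422. The TMD8 call was lost without its pair at 6 h (0.32, adjusted p = 0.187) or at 18 h (0.44, adjusted p = 0.151). It was also lost on log2(TPM + 1) (0.27, adjusted p = 0.139) and with TMD8 fitted alone (0.52, adjusted p = 0.150).

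BLNK, the scaffold that SYK phosphorylates, rose in TMD8, HT and K422. In K422 it had 12.2, 12.9, 17.3 and 17.5 CPM under AZD8186, against 7.36, 7.16, 9.92 and 8.11 CPM under DMSO, a 1.83-fold rise from the lowest level of the 4 lines. In HT it had 122, 124, 139 and 133 CPM under AZD8186, against 102, 97.5, 111 and 112 CPM under DMSO. TMD8 had 142, 186 and 167 CPM under AZD8186, against 115, 118 and 115 CPM under DMSO. In these 3 lines the libraries of the treatments did not overlap, a separation that was not counted over all genes within a line. In OCI-Ly10 the treatments overlapped, with 264, 317, 396 and 394 CPM under AZD8186, against 277, 309.8, 346 and 335 CPM under DMSO. The log2 fold change was 0.53 (SE 0.09, adjusted p = 0.000232) in the GCB lines, 0.30 in HT (SE 0.07, adjusted p = 0.00612) and 0.87 in K422 (SE 0.08, adjusted p = 3.52e-07), and the lines differed from each other by 0.58 (SE 0.11, adjusted p = 0.00273). In the ABC lines it was 0.27 (SE 0.08, adjusted p = 0.0222), with 0.50 in TMD8 (SE 0.08, adjusted p = 0.000395) and 0.10 in OCI-Ly10 (SE 0.07, adjusted p = 0.313). The ABC call was lost when the 18 h or the 24 h pair of either line was left out (adjusted p = 0.0553 to 0.0860).

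DAPP1, an adaptor that binds the lipid products of PI3K, rose in OCI-Ly10, TMD8 and K422. In OCI-Ly10 it had 44.2, 38.7, 40.2 and 42.9 CPM under AZD8186, against 41.8, 30.3, 32.0 and 36.7 CPM under DMSO. TMD8 had 37.4, 33.5 and 30.1 CPM under AZD8186, against 28.8, 25.2 and 25.8 CPM under DMSO. In K422 there were 31.9, 34.6, 28.8 and 37.4 CPM under AZD8186, against 24.6, 24.2, 26.7 and 27.8 CPM under DMSO. HT was the exception, with 17.6 to 19.1 CPM under AZD8186 inside the 15.4 to 21.1 CPM under DMSO. The log2 fold change was 0.29 in the ABC lines (SE 0.06, adjusted p = 0.00381), with a rise in 7 of 7 pairs, and 0.19 in the GCB lines (SE 0.07, adjusted p = 0.0372), with a rise in 6 of 8 pairs. The OCI-Ly10 call was lost without its pair at 12, 18 or 24 h (adjusted p = 0.0958 to 0.142) and with no replicate block (adjusted p = 0.0744). The TMD8 call was lost without its pair at 6 h (adjusted p = 0.0723) or 18 h (adjusted p = 0.129) and with TMD8 fitted alone (adjusted p = 0.127). The GCB call was lost without any 1 of the K422 pairs, without the HT pair at 6 h or 18 h (adjusted p = 0.0539 to 0.132), and with the pair of line and time as a block (adjusted p = 0.0665).

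BTK, the kinase that phosphorylates PLCG2, changed little. In OCI-Ly10 it had 141, 146, 174 and 171 CPM under AZD8186, against 132, 132, 149 and 135 CPM under DMSO, and in TMD8 122, 156 and 142 CPM under AZD8186, against 114, 148 and 134 CPM under DMSO. It was higher in 7 of 7 ABC pairs, by 0.15 on the log2 scale (SE 0.05, adjusted p = 0.0340), and had 0.02 in the GCB lines (SE 0.04, adjusted p = 0.677). The ABC call was lost without the OCI-Ly10 pair at 12, 18 or 24 h or the TMD8 pair at 18 h (adjusted p = 0.0529 to 0.133), and its sign turned on log2(TPM + 1) (-0.05, adjusted p = 0.600). GRB2, which links the receptor to RAS, had 0.10 in the ABC (SE 0.06, adjusted p = 0.221) and -0.03 in the GCB lines (SE 0.04, adjusted p = 0.539). In TMD8 GRB2 rose by 0.20 (SE 0.06, adjusted p = 0.0295), with 529.9, 529 and 497 CPM under AZD8186, against 447, 453 and 452 CPM under DMSO. That TMD8 call was lost without its pair at 6 h (adjusted p = 0.115) or 18 h (adjusted p = 0.146) and turned to -0.03 on log2(TPM + 1).

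VAV1, the exchange factor for RAC, was the one gene of the 10 that fell in both GCB lines. In K422 it had 58.2, 64.8, 75.1 and 79.6 CPM under AZD8186, against 113, 118, 112 and 106 CPM under DMSO. In HT it had 79.3, 82.4, 88.2 and 91.6 CPM under AZD8186, against 107, 108, 109.9 and 105 CPM under DMSO. The highest treated GCB library lay below the lowest solvent library, a separation that 3.12% of all genes showed in the GCB lines (1.19% in the ABC lines, where 0 of the 10 genes showed it). That share leaves out genes whose DMSO levels differ much between the lines. BLK and BLNK separated within HT and within K422 but not over both, whereas VAV1 had like DMSO levels in HT and K422. The share is thus no measure of how rare the VAV1 response is. The ABC lines overlapped, with 82.4, 70.9, 81.9 and 77.5 CPM under AZD8186 in OCI-Ly10, against 87.1, 78.4, 78.7 and 75.0 CPM under DMSO. TMD8 had 90.8, 114 and 116 CPM under AZD8186, against 116, 109 and 107 CPM under DMSO, so that only its 6 h pair was lower. The log2 fold change was -0.53 in the GCB lines (SE 0.07, adjusted p = 2.7e-05, lower in 8 of 8 pairs) and -0.04 in the ABC lines (SE 0.06, adjusted p = 0.681). It was -0.70 in K422 (SE 0.09, adjusted p = 4.93e-06) and -0.34 in HT (SE 0.09, adjusted p = 0.0120), and the HT call was lost without its pair at 6, 12 or 18 h (adjusted p = 0.0513 to 0.0593). Across the treated libraries the order of the lines for VAV1 was therefore not that under DMSO: ABC against GCB it was 0.24 (adjusted p = 0.00280) in AZD8186 libraries and -0.22 in DMSO libraries.

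PLCG2, the phospholipase that BTK and SYK activate, rose in OCI-Ly10 and fell in K422. In OCI-Ly10 it had 342, 479.7, 459.7 and 479.7 CPM under AZD8186, against 306, 391, 345 and 328 CPM under DMSO. TMD8 had 187, 378 and 353 CPM under AZD8186, against 198, 280.1 and 284 CPM under DMSO, higher at 18 and 24 h alone. In K422 it had 509.7, 609.6, 684 and 695 CPM under AZD8186, against 808, 807, 815 and 763 CPM under DMSO. In HT the treatments overlapped, with 474 to 571 CPM under AZD8186 and 486 to 538 CPM under DMSO. The log2 fold change was 0.30 in the ABC lines (SE 0.08, adjusted p = 0.0142) and -0.17 in the GCB lines (SE 0.07, adjusted p = 0.0703), with -0.36 in K422 (SE 0.09, adjusted p = 0.00344) and 0.05 in HT (SE 0.09, adjusted p = 0.790). In OCI-Ly10 it was 0.36 (SE 0.09, adjusted p = 0.0104), while TMD8 did not pass (0.22, SE 0.11, adjusted p = 0.160). The ABC call was lost without the OCI-Ly10 pair at 18 h (adjusted p = 0.0525) or 24 h (adjusted p = 0.0552). The OCI-Ly10 call was lost without the same pairs (adjusted p = 0.0636 and 0.0868).

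LYN, SYK and FYN did not pass the test in either subtype, but each passed it in 1 line. LYN had 43.8, 56.9, 85.8 and 87.0 CPM in K422 under AZD8186, against 96.9, 87.5, 102 and 91.0 CPM under DMSO. The fold change of -0.51 on the log2 scale (SE 0.15, adjusted p = 0.00989) was lost without the pair at 6 h (-0.31, adjusted p = 0.0912). In TMD8 LYN had 434, 696 and 695 CPM under AZD8186, against 860.0, 696 and 708 CPM under DMSO, so that the difference lay in the 6 h pair. Its values were 177 to 186 CPM under AZD8186 in OCI-Ly10, against 191 to 215 CPM under DMSO, which do not overlap but did not pass the test (log2 fold change -0.17, SE 0.15, adjusted p = 0.435). LYN did not overlap in TMD8 and K422 either, and such separation was not counted over all genes within a line. Over the subtypes LYN had -0.23 in the ABC (adjusted p = 0.0764, lower in 7 of 7 pairs) and -0.26 in the GCB lines (adjusted p = 0.0718, lower in 6 of 8 pairs).

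SYK fell in OCI-Ly10, with 548, 528, 542 and 485 CPM under AZD8186, against 615, 634, 714 and 678 CPM under DMSO. The log2 fold change there was -0.33 (SE 0.08, adjusted p = 0.00676), and the call was lost without the pair at 18 h (adjusted p = 0.0502) or 24 h (adjusted p = 0.0623). SYK was higher under AZD8186 in 4 of 4 HT pairs, by 0.23 (SE 0.09), but did not pass (adjusted p = 0.0766). FYN rose in K422, with 122, 111, 123 and 112 CPM under AZD8186, against 98.1, 87.2, 97.0 and 92.5 CPM under DMSO (0.32, SE 0.06, adjusted p = 0.000248). In HT it was lower in 4 of 4 pairs by -0.09 (SE 0.06, adjusted p = 0.315), and in the ABC lines it lay at 0.826 to 4.79 CPM under AZD8186 and 0.704 to 5.39 CPM under DMSO.

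**Figure D3:**
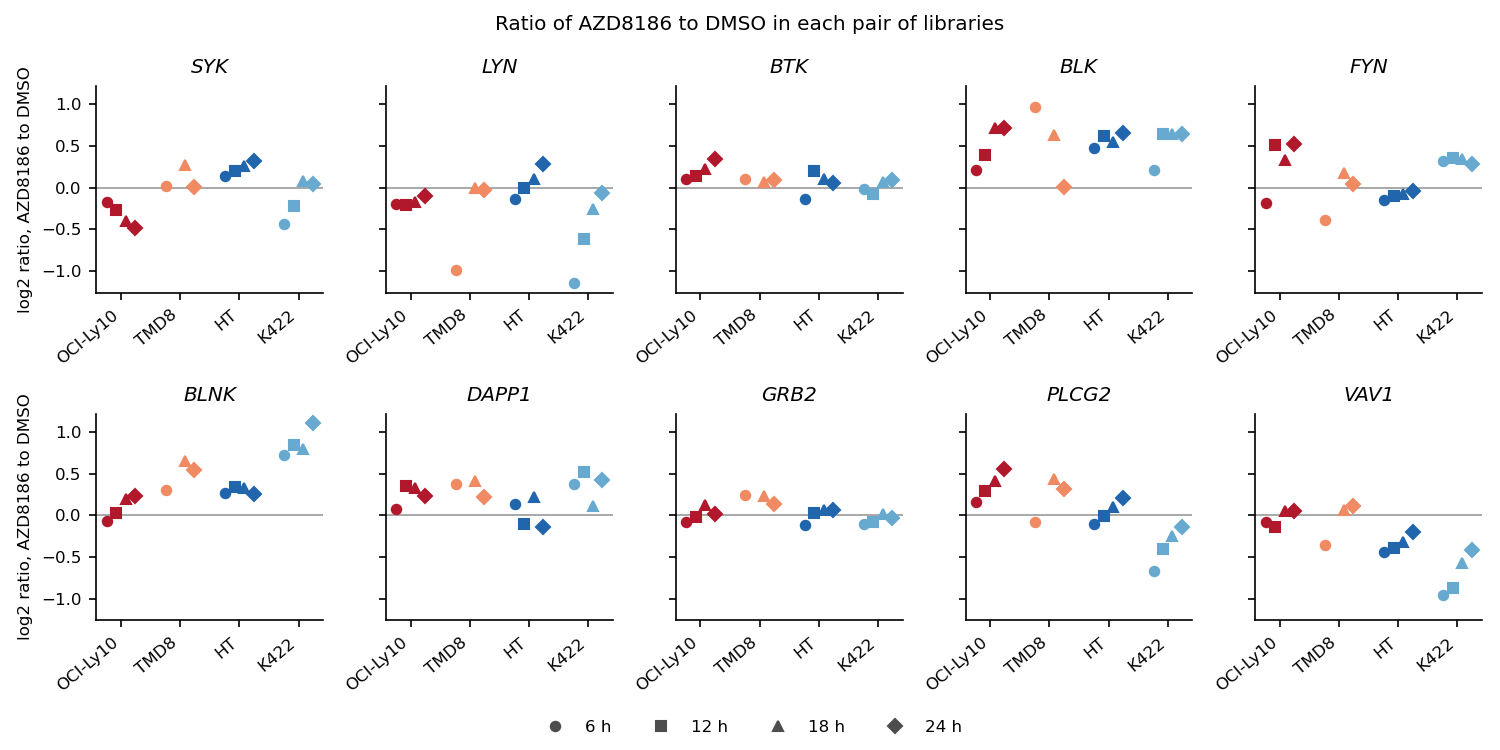
Log2 ratio of AZD8186 to DMSO in each of the 15 pairs of libraries, by gene, cell line (colour and position) and time (symbol). BLK lies above 0 in 15 of 15 pairs, VAV1 below 0 in 8 of 8 GCB pairs and LYN at -0.99 and -1.15 in the 6 h pairs of TMD8 and K422.

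By line, 5 of the 10 genes passed the test in OCI-Ly10, 4 in TMD8, 3 in HT and 7 in K422, beside 22.8%, 16.9%, 16.6% and 43.0% of all genes. Whether the response itself differed between lines was tested as a contrast of the treatment terms, blocked by pair. The response in K422 exceeded that in HT for FYN by 0.41 (SE 0.08, adjusted p = 0.00469) and for BLNK by 0.58 (SE 0.11, adjusted p = 0.00273), and it was lower for PLCG2 by a log2 difference of -0.41 (SE 0.13, adjusted p = 0.0482), beside 10.6% of all genes. The PLCG2 difference is at the threshold and was lost without any HT pair, any K422 pair before 24 h, the OCI-Ly10 pairs at 12 or 18 h or that of TMD8 at 24 h (adjusted p = 0.0529 to 0.141). Between TMD8 and OCI-Ly10 0 of the 10 genes passed (3 at an unadjusted p under 0.05, edgeR), beside 0.899% of all genes, with BLNK nearest (0.40, SE 0.10, adjusted p = 0.0728). Without the 4 pairs at 6 h, BLNK (0.44, adjusted p = 0.0124) and SYK (0.52, adjusted p = 0.0101) passed.

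The GCB response was lower than the ABC response for VAV1 by a log2 difference of -0.47 (SE 0.09, adjusted p = 0.00138) and for PLCG2 by -0.45 (SE 0.10, adjusted p = 0.00347). For BLNK it was higher by 0.29 (SE 0.07, adjusted p = 0.0123). These 3 of 10 genes stand beside 15.8% of all genes. The 7 other genes did not pass, and for BLK the subtypes differed by 0.05 (SE 0.12, adjusted p = 0.899). Within the GCB lines the K422 fold changes of VAV1, PLCG2 and BLNK lay farther from 0 than those of HT. Without the 4 pairs at 6 h, SYK passed as well (0.24, adjusted p = 0.0328).

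Over time, the early pairs of K422 were the farthest from 0 for several genes. For VAV1 the log2 ratio of AZD8186 to DMSO in K422 was -0.95, -0.86, -0.58 and -0.41 at 6, 12, 18 and 24 h, and in HT it was -0.44, -0.39, -0.32 and -0.20. PLCG2 in K422 had -0.66, -0.41, -0.25 and -0.14, and LYN in K422 had -1.15, -0.62, -0.25 and -0.06. These ratios shrank with time, the treated level climbing while the solvent level stayed nearly flat. In OCI-Ly10 other genes moved away from 0, with SYK at -0.17, -0.26, -0.40 and -0.48 and PLCG2 at 0.16, 0.29, 0.41 and 0.55. The test of late (18 and 24 h) against early (6 and 12 h) response called 0 of the 10 genes and 0 of all genes, that is 0%, in either subtype with edgeR. At an unadjusted p under 0.05 there were 4 of the 10 genes and 1356 of 11419 genes in the ABC lines, and 1 of the 10 (LYN) and 759 of 10965 genes in the GCB lines. The time courses are therefore a description of single libraries.

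**Figure D4:**
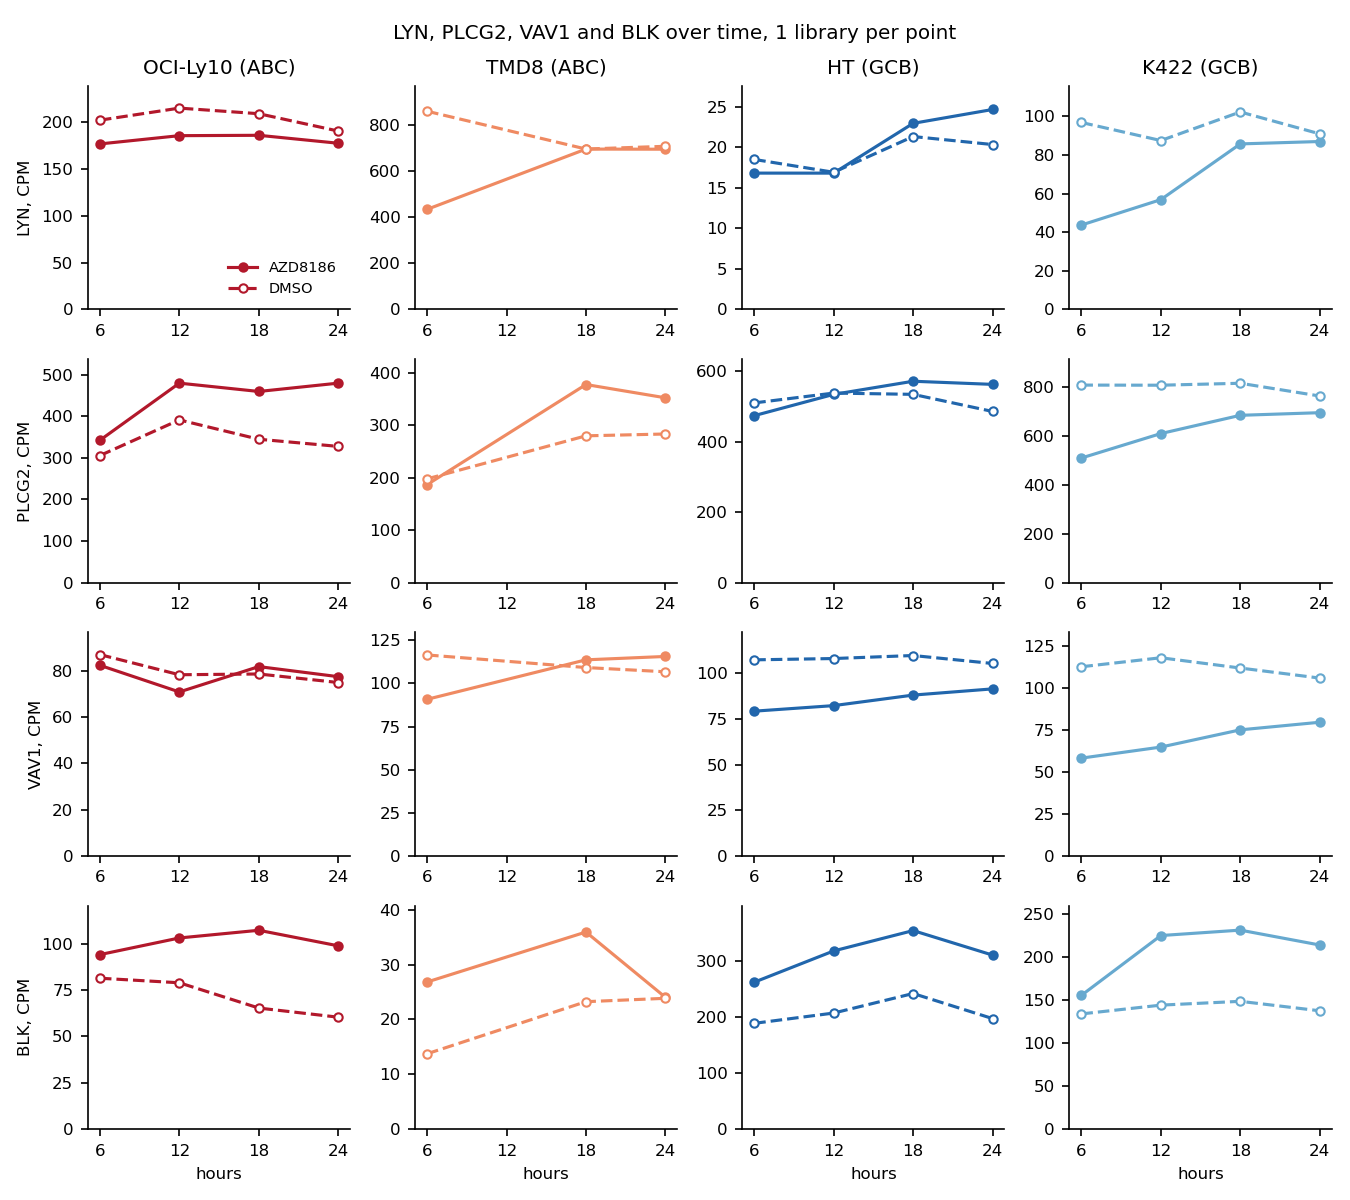
LYN, PLCG2, VAV1 and BLK in CPM against hours of treatment, by cell line, with filled points and solid lines for AZD8186, open points and dashed lines for DMSO, and 1 library per point. In K422 the AZD8186 level of VAV1 lies at 58.2 to 79.6 CPM and the DMSO level at 106 to 118 CPM, and LYN reaches 87.0 CPM under AZD8186 at 24 h against 91.0 CPM under DMSO.

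VAV1 and PLCG2 were the most alike of the 10 genes in their ratios. Over the 15 pairs and 9567 genes that average 5 CPM or more, PLCG2 was the gene most correlated with VAV1 (Pearson r = 0.967) and VAV1 the gene most correlated with PLCG2, followed by CERS4 (0.943) for VAV1 and AEN (0.946) for PLCG2. These correlations are descriptions, and the points share cell lines, libraries and time points. The other leading partners were DGKA (0.930) and STAG3L2 (0.854) for SYK, ACSL1 (0.920) and DHX34 (0.908) for LYN, and TMEM18 (0.851) and CLK3 (0.836) for BTK. BLK had CTNNBIP1 (0.800) and R3HDM2 (0.796), and FYN had CCNL2 (0.842) and HMBOX1 (0.840). BLNK had RNF11 (0.928) and UBE2W (0.923), DAPP1 had CD86 (0.801) and SLITRK5 (0.784), and GRB2 had CSNK1G2 (0.935) and SASH3 (0.883). No kinase among the 10 genes had another of the 10 as a leading partner.

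**Figure D5:**
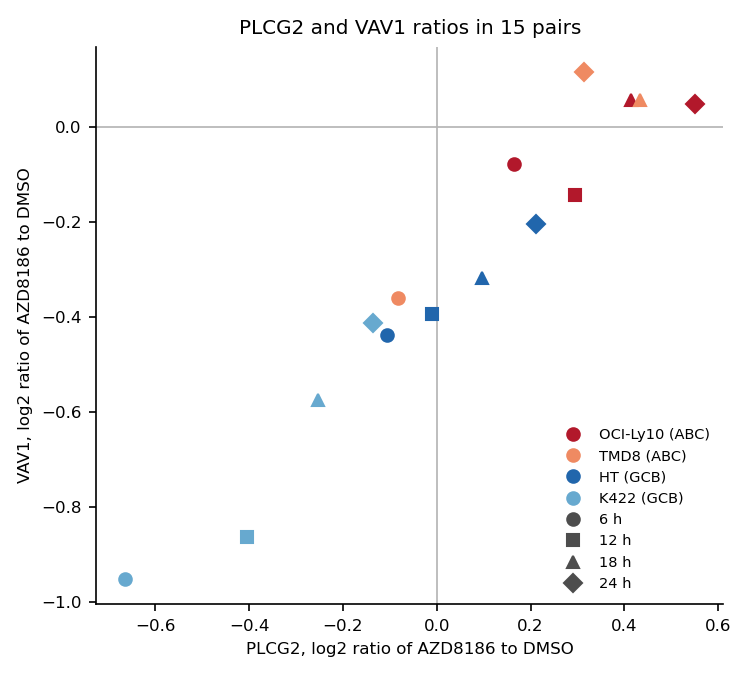
Log2 ratio of AZD8186 to DMSO for VAV1 (vertical) against PLCG2 (horizontal) in 15 pairs of libraries, by cell line (colour) and time (symbol). The K422 pairs lie at the lower left, the 6 h pair at -0.66 for PLCG2 and -0.95 for VAV1, and the points rise together (r = 0.967, a description).

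Around the 10 genes, a list of 53 other genes of B-cell receptor signaling changed in both directions. In the ABC lines 49 were tested, of which 13 were higher, 7 were lower and 29 did not pass, and the list's median log2 fold change was 0.16 beside 0.01 over all genes. In the GCB lines 48 were tested, of which 11 were higher, 15 were lower and 22 did not pass, with a median of -0.05 beside 0.02. The shares over all genes were 15.3% higher and 13.8% lower in the ABC lines and 25.9% higher and 23.5% lower in the GCB lines, and the list's GCB counts are near them. On log2(TPM + 1), a recount chosen after seeing the data, the counts were 6 higher and 14 lower in the ABC lines, and 9 higher and 16 lower in the GCB lines. Over all genes on that scale, 583 of 11419 were higher and 4297 lower in the ABC lines. In the GCB lines 2085 of 10965 were higher and 3065 lower. The genes named here kept their direction and passed on that scale, with smaller values in the ABC lines for SRC (-0.45), CBLB (0.63) and PTPN22 (0.62). By the smallest p, the leading rises in the ABC lines were CBLB, a ubiquitin ligase that dampens the receptor (1.16, SE 0.12, adjusted p = 4.8e-05), CD79B, the receptor's own signaling chain (1.15, SE 0.12, adjusted p = 4.93e-05), and PTPN22, a phosphatase of SRC-family kinases (1.05, SE 0.14, adjusted p = 0.000171). The leading falls there were GAB2, an adaptor that recruits PI3K (-0.89, SE 0.09, adjusted p = 2.69e-05), PTPN6, the phosphatase SHP-1 (-1.21, SE 0.17, adjusted p = 0.000254), and the kinase SRC (-1.33, SE 0.24, adjusted p = 0.00145). In the GCB lines CBLB (0.62, SE 0.08, adjusted p = 2.98e-05) and CD79B (0.61, SE 0.11, adjusted p = 0.000255) rose as well, with SOS2, an exchange factor for RAS that GRB2 carries (0.79, SE 0.08, adjusted p = 4.23e-06). PTPN6 fell there too (-1.49, SE 0.17, adjusted p = 9.9e-06), with PAG1, an adaptor that holds the inhibitory kinase CSK (-0.52, SE 0.07, adjusted p = 2.86e-05), and RASGRP1, an exchange factor for RAS (-0.48, SE 0.07, adjusted p = 3.75e-05). Several of these genes are in tables the study drew from the same libraries, so their direction is no independent evidence.

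By sub-list, 4 of 6 receptor and co-receptor genes rose in the ABC lines and 1 fell, beside 15.3% and 13.8% of all genes. Of the 5 tested in the GCB lines, 2 rose and 1 fell, which is near the 25.9% and 23.5% of all genes. This sub-list holds the inhibitory receptor CD22, which was among the rises in the ABC lines (0.72) and was the fall in the GCB lines (-0.84). The sub-list labelled negative regulators had 4 of 7 higher (CBLB, PTPRC, PTPN22 and INPP5D) and 1 lower (PTPN6) in the ABC lines. The label is coarse, since PTPRC is not a negative regulator alone, so these counts do not show that inhibition rose. In the GCB lines 1 of the 7 was higher and 3 were lower, a number called that is near the background there. The sub-lists hold few genes and were not tested as sets. Between the subtypes, the GCB response was lower than the ABC response for 18 and higher for 4 of the 50 list genes tested, beside 7.42% lower and 8.40% higher of all genes. These counts depend on the scale. Over all 12910 genes, log2(TPM + 1) gave 581 lower and 2840 higher, beside 958 and 1084 on counts, and the list was not recounted for this difference.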

How the data were processed

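According to the study's Supplementary Methods, the NucleoSpin RNA Plus kit gave the RNA of the 30 libraries, HISAT2 mapped the reads to human transcripts and RSEM quantified genes. The submitters' processing notes name GRCh38.p12. For HISAT2 and RSEM, a version is not given in the sources used here. As counts, the authors deposited RSEM's expected counts, estimates per gene and not normalized. Their TPM, also deposited, correct those counts for effective length and scale each library to the same sum. FPKM were deposited too, fragments per kilobase scaled to the library, and were not used here. Reads that fit several similar genes are split among them by RSEM. Without a stated strand, reads of antisense or overlapping genes cannot be told apart from those of a gene. Labels name the controls DMSO, whereas the series' design text calls them untreated. The dose comes from the Supplementary Methods.

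Counts were rounded, filtered with filterByExpr and scaled by TMM. The test was the quasi-likelihood F test of edgeR 4.0.16 in R 4.3.3, with p-values adjusted over all genes by Benjamini and Hochberg's method at 0.05. Subtype fits had line and time as terms. Fits per line, for differences and for late against early were blocked by the pair of line and time. They ran over all 30 libraries, or over those of a subtype for late against early. Log2 ratios per pair came from log2 CPM (prior count 2). The SE is the log2 fold change divided by the square root of F. Alternatives were DESeq2 size factors, DESeq2 1.42.0, no filter, limma 3.58.1 on log2(TPM + 1) with a pseudocount of 1, other terms, counts without ribosomal genes, and pairs left out. In the subtype fits the block was an alternative, since the same-pair correlation of deviations was -0.020 to 0.289 and not over 0.1 in every pair. Still, in every pair but that of K422 at 24 h, the treated library correlated best with its own DMSO library among those of its line. Scripts were tested on simulated data. The 10 genes, the lists and the tests were chosen with earlier results of these data known. Named were all 10 genes, the 3 list genes with the smallest p per subtype and direction, and the 2 genes most correlated with each of the 10. Tables and figures were made with Python 3.11.15 (pandas 2.3.3, matplotlib 3.10.9, numpy 2.4.6).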

Additional observations from a re-analysis of the deposited data

Results flagged for a closer look

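Among 90 groups of 4 values (the log2 CPM of a gene in a line and treatment, or its log2 ratio in a line), 4 had a value that stood apart from the other 3, where chance gives about 1 in 20. BTK in OCI-Ly10 under DMSO had 7.22 on the log2 CPM scale at 18 h, and 7.04 to 7.07 in the other libraries. The log2 ratio of BLK in K422 was 0.22 at 6 h and 0.64 at the other times. PLCG2 had 8.42 in OCI-Ly10 under AZD8186 at 6 h, and 8.84 to 8.91 later, and 9.58 in K422 under DMSO at 24 h, and 9.66 to 9.67 before.

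The response differed between groups by the test of the difference itself for 6 results. K422 exceeded HT for FYN (0.41, every pair higher in K422 and every pair lower in HT) and BLNK (0.58), and lay below it for PLCG2 (-0.41). The GCB response lay above the ABC response for BLNK (0.29) and below it for PLCG2 (-0.45) and VAV1 (-0.47). Explanations of these differences were not tested.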

How the results depend on the processing

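Counts below are of the 10 genes past an adjusted p of 0.05. Under these alternatives, calls over all genes were counted for the subtype fits and for GCB minus ABC. For single lines, differences between lines and DMSO levels they were not, so those counts cannot be told apart from a shift of all genes. On log2(TPM + 1), 3 genes were lower and 0 higher in the ABC lines, 3 were lower in the GCB lines, 2 lower and 1 higher in OCI-Ly10, and 2 lower and 1 higher in TMD8. Over all genes on that scale, 4297 of 11419 were lower and 583 higher in the ABC lines. In the GCB lines 3065 of 10965 were lower. The subtype counts of the 10 genes are near these shares. On that scale 3 responses were lower in K422 than in HT, 1 was higher in TMD8 than in OCI-Ly10 and 2 were higher in GCB than in ABC lines. Of all 12910 genes tested on that scale, 2840 were higher in GCB than in ABC lines, so that the last count is near the background. Under DMSO it gave 3 genes higher in OCI-Ly10 than in K422, and 5 lower and 3 higher in TMD8 than in K422. It turned the sign of BTK in the ABC lines (-0.0457), GRB2 in TMD8 (-0.0289), BTK in OCI-Ly10 against K422 (-0.0863), VAV1 in TMD8 against HT (-0.2545, a difference that passed), and SYK (-0.0660), BTK (-0.1951) and DAPP1 (-0.3850) in TMD8 against K422. In a recount on that scale, chosen after seeing the data, the 53 other signaling genes had 6 higher and 14 lower in the ABC lines (13 and 7 on counts). The recount stands beside the 583 higher and 4297 lower of all 11419 genes on that scale. With treatment as the one term, 0 genes were higher in the ABC and 1 in the GCB lines, since the spread between lines and times then enters the error. Over all genes, 97 of 11419 were then higher in the ABC and 622 of 10965 in the GCB lines. In K422 minus HT, 0 genes were lower with DESeq2 size factors and 0 with no replicate block. Without the 4 pairs at 6 h, 3 were lower in K422 minus HT, 2 higher in TMD8 minus OCI-Ly10 and 2 higher in GCB minus ABC. Over all genes, 1521 of 13051 were then higher in GCB minus ABC. TMD8 fitted alone, with fewer libraries, gave 1 higher gene. AZD8186 libraries in place of DMSO libraries turned VAV1 to 0.1896 in OCI-Ly10 against K422, 0.5790 in TMD8 against K422, 0.2980 in HT against K422 and 0.2353 in ABC against GCB lines.

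With 1 pair left out at a time, 2 to 5 genes were higher in the ABC lines (2 without the OCI-Ly10 pair at 18 or 24 h) and 1 to 3 lower in the GCB lines (3 without the HT pair at 24 h). Calls over all genes dropped too. In the ABC lines 1750 of 11419 were higher with all pairs, 1124 of 11607 without the OCI-Ly10 pair at 18 h and 1140 of 11583 without that at 24 h. In the GCB lines 2432 of 10632 were lower without the HT pair at 24 h, and 2576 of 10965 with all pairs. By line there were 0 to 1 lower and 1 to 4 higher in OCI-Ly10 (0 and 1 without its pair at 18 or 24 h), 1 to 4 higher in TMD8 (1 without its pair at 18 h) and 0 to 1 lower in HT (0 without its pair at 6, 12 or 18 h). K422 minus HT had 0 to 4 lower (4 without the TMD8 pair at 6 h) and TMD8 minus OCI-Ly10 had 0 to 1 higher (1 without the TMD8 pair at 6 h). For the fits by line and their differences, calls over all genes with a pair left out were not counted. The cause of the other changes was not tested. With the replicate block in the subtype fits, DAPP1 in the GCB lines no longer passed (adjusted p = 0.0665), and the other calls of the 10 genes were unchanged. Of all 2530 single-gene values recomputed, 2399 kept their direction and side of the threshold.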
